A study of Mus musculus with 6 samples.

Results

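The genes described here are the calcium pumps, the calcium release channels of the endoplasmic reticulum (ER) and the plasma membrane sodium-calcium exchanger of mouse embryonic fibroblasts (MEFs). Their 10 members were chosen by symbol, as the rows of the deposited gene table named Atp2a2, Atp2a3, Atp2b1, Atp2b4, Atp2c1, Itpr1, Itpr2, Itpr3, Tmco1 and Slc8a1, and all 10 were found among the 18872 genes of the table. The cells were primary MEF cultures of B6 background, grown from the minced trunks of mid-gestation embryos, with each embryo plated on its own dish. RNA was sequenced from 3 libraries labelled SARAF-KO (KO-labelled libraries) and 3 labelled SARAF-WT, wild type (WT-labelled libraries). The sources used here do not tie a library to an embryo. P-values therefore measure the spread between these libraries, which may be technical. In the mouse line, exon 3 of Saraf is flanked by loxP sites and is removed in SARAF-KO animals by a Cre recombinase driven by the Pgk1 promoter in the whole body. The SARAF-WT animals of this line were described as Cre-negative littermates that carry the same floxed allele, although the sample labels say wild type only.

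SARAF is an ER membrane protein that promotes the inactivation of store-operated Ca2+ entry, the influx that refills the ER after its Ca2+ has been released. The members are the other arms of that cycle. IP3 receptors open when inositol trisphosphate binds and let Ca2+ out of the ER. SERCA pumps return it to the ER, PMCA pumps and the sodium-calcium exchanger expel it across the plasma membrane, and SPCA pumps load the Golgi apparatus with Ca2+ and manganese. TMCO1 is an ER membrane protein described as a Ca2+ leak channel that opens when the store is overfull. The comparison asked whether the RNA of these genes differed between the groups by label.

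Values are normalized counts, which are the reads counted on a gene divided by a scaling factor of its library. The KO-labelled libraries held 37979662, 37815852 and 32799080 counted reads and the WT-labelled ones 32228588, 31235028 and 24595137. Every KO-labelled library was thus deeper than any WT-labelled one, and the part of depth in the differences was not tested. Differences are given as KO-labelled minus WT-labelled libraries, on the scale of log2 of the normalized count plus 1, with adjusted p-values from limma over 13986 genes with a mean of at least 10. A gene was called at an adjusted p under 0.05. Saraf, the targeted gene, ran against the labels, with 4631, 4476 and 4384 normalized counts in the KO-labelled libraries and 3268, 3409 and 3306 in the WT-labelled ones. Its log2 change was 0.43 (limma, adjusted p = 4.2e-12, standard error 0.03), on a count that covers the whole gene and does not separate exon 3. Every direction below is therefore a direction by label. Whether the names of the groups were exchanged was not tested, and if they were, the sign of every difference would turn. All 10 fibroblast markers examined were above the minimum mean, 7 of them called lower and 2 higher (28% and 28.2% of all genes tested). The most abundant, Fn1 (fibronectin), had 65645 ± 1926 and 91262 ± 4453 normalized counts in the KO-labelled and WT-labelled libraries (SD, n = 3).

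Most members differed between the groups, and by small amounts. The mean normalized count of Itpr1 fell by 30.3% in the KO-labelled libraries, that of Slc8a1 fell by 28.9%, that of Atp2b4 fell by 20.7%, that of Itpr3 fell by 10.4% and that of Tmco1 fell by 8.77%, whereas Atp2b1 was 8.99% and Atp2c1 5.86% higher. Of the 9 members tested, 7 were called, 5 lower and 2 higher in the KO-labelled libraries. The share called over all genes tested was 56.2%, with 28.2% higher and 28% lower, so a call alone does not set these genes apart. Atp2a2 and Itpr2 were not called, and Atp2a3 was below the minimum mean. The largest absolute log2 change of a member was 0.52, in Itpr1, whereas 656 genes of the series were called with an absolute log2 change of at least 1. The median absolute log2 change was 0.13 over the 9 tested members and 0.16 over all genes tested. The groups did not overlap in 6 of the 9 (61.4% of all genes tested), 1 of them higher (30.9%) and 5 lower (30.5%). With edgeR on recovered reads 7 members and 56.3% of all genes tested were called, and with DESeq2 6 members and 41.7%.

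**Figure D1:**
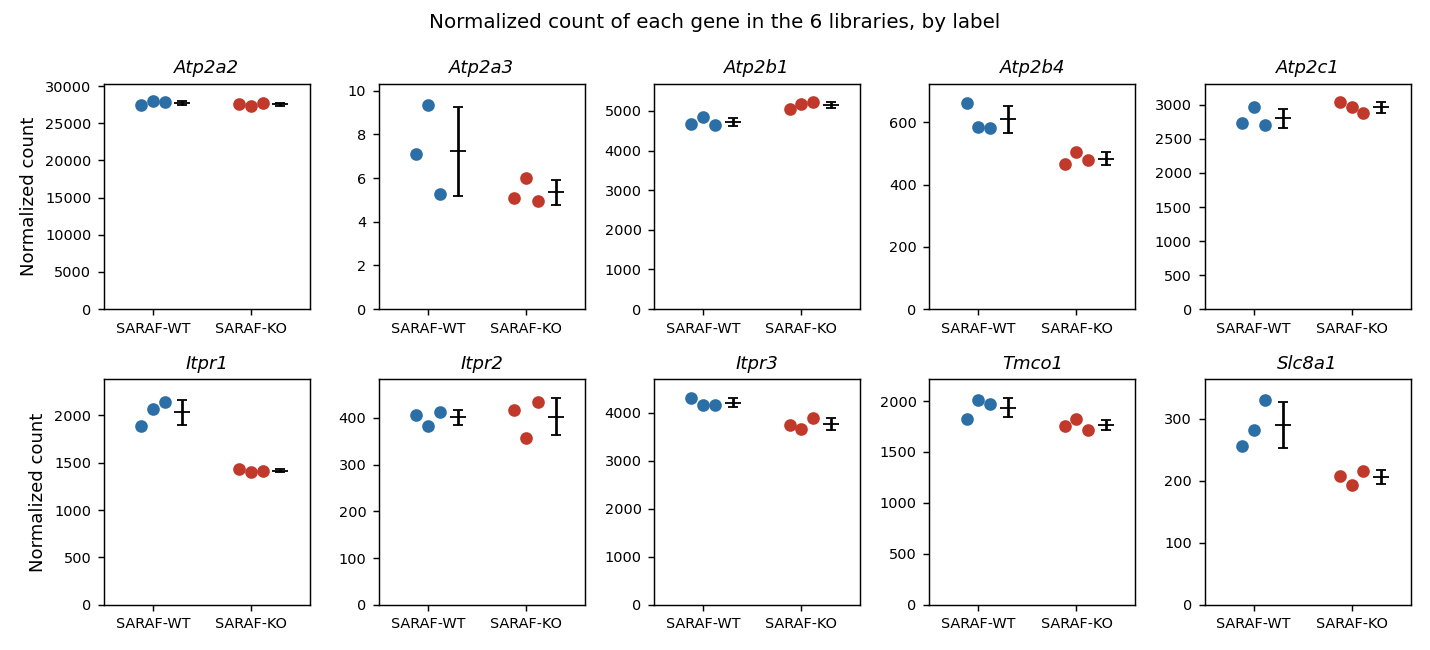
Normalized count (vertical axis, from 0) of each of the 10 members in the 3 WT-labelled (blue) and the 3 KO-labelled (red) libraries, with the mean and SD of each group as a bar to the right of its points. Itpr1 and Slc8a1 stand lower in the KO-labelled libraries, Atp2a2 lies at about the same height in all 6, and Atp2a3 is under 10 in every library.

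The IP3 receptors, which release Ca2+ from the ER, included the member with the largest difference and one with almost none. Itpr1, the receptor isoform that predominates in neurons and is also found in smooth muscle, had 1434, 1398 and 1413 normalized counts in the KO-labelled libraries and 1884, 2064 and 2143 in the WT-labelled ones. The highest value of the first group lay well below the lowest of the second. Its log2 change of -0.52 (limma, adjusted p = 7.2e-11, standard error 0.04, 95% interval -0.60 to -0.43) was exceeded in size by 13.4% of all genes tested. Itpr1 is located on chromosome 6 at 108213096 to 108551109 (plus strand of GRCm38, GENCODE M21).

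Itpr3, the isoform with the lowest affinity for its ligand, had 3757, 3660 and 3901 normalized counts in the KO-labelled libraries and 4318, 4159 and 4160 in the WT-labelled ones. The groups did not overlap, and the log2 change was -0.16 (limma, adjusted p = 6.5e-05, standard error 0.03, 95% interval -0.22 to -0.10). A larger absolute change was found in 49.3% of all genes tested, so the difference in Itpr3 was of middling size among them. Itpr3 is located on chromosome 17 at 27057304 to 27122223 (plus strand).

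Itpr2, an isoform prominent in liver and heart, had 416, 358 and 434 normalized counts in the KO-labelled libraries and 406, 384 and 414 in the WT-labelled ones. The groups overlapped throughout, and the log2 change was 0.00 (limma, adjusted p = 0.99, standard error 0.07). The 95% interval of the difference, -0.15 to 0.15 on the log2 scale, contains a change the size of that in Tmco1 but not one the size of that in Itpr1. Itpr2 is located on chromosome 6 at 146108299 to 146502223 (minus strand).

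The share of each isoform in the IP3 receptor RNA was then compared within libraries. Per kilobase of exon (all annotated exons of a gene merged), Itpr3 took 80.0% ± 0.32 of the sum of the IP3 receptor genes in the KO-labelled libraries and 77.2% ± 1.29 in the WT-labelled ones (SD, n = 3). Itpr1 took 14.8% ± 0.41 and 18.3% ± 1.27, and Itpr2 5.20% ± 0.37 and 4.48% ± 0.15. By library, the share of Itpr1 was 14.97%, 15.07% and 14.31% against 16.89%, 18.79% and 19.30%. The groups did not overlap for any of these shares, and each gave p = 0.1 in a two-sided exact permutation test, the smallest that 3 against 3 allow. The shares restate the member values above and are no further evidence of a difference. A lower share of 1 gene also raises the others, as for Itpr2, whose own counts were not called. A share within a library does not depend on its scaling factor, but it does depend on the length used for each gene. The merged exons of Itpr1 span 18319 bases and its longest annotated transcript 9870, and with the longest transcripts the share of Itpr1 was 24.0% against 29.0%. Itpr3 took the largest share and Itpr2 the smallest in every library with either length.

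**Figure D2:**
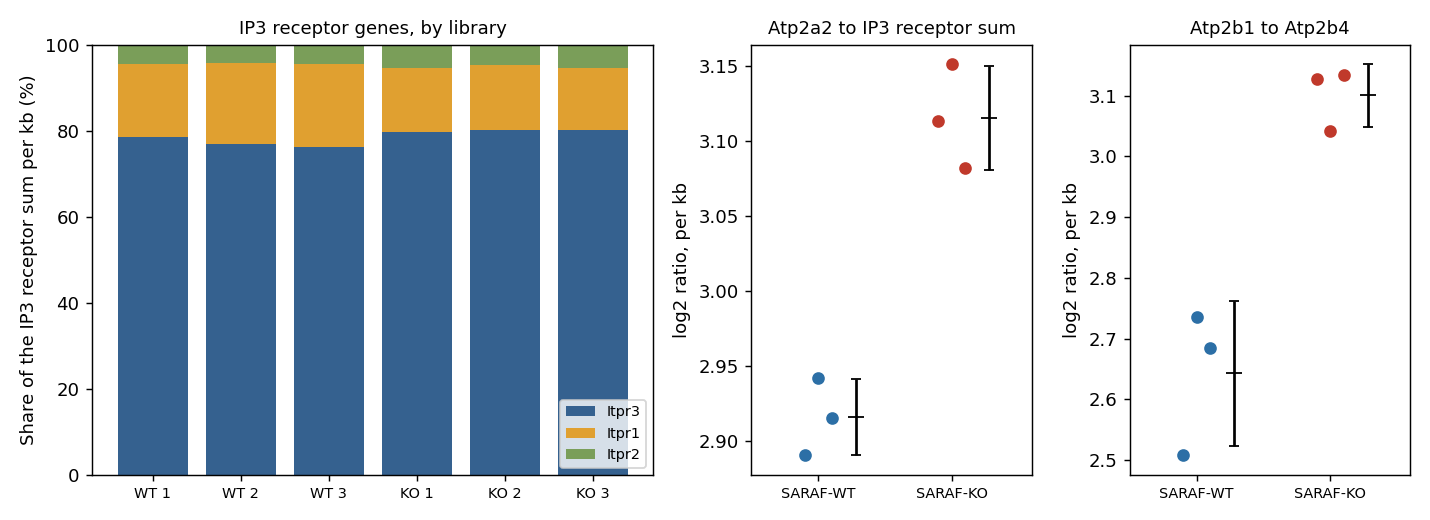
Left, share (%) of each IP3 receptor gene in the sum of Itpr1, Itpr2 and Itpr3 per kilobase of exon, as 1 stacked bar per library. Right, log2 ratio of Atp2a2 to that sum and of Atp2b1 to Atp2b4, both per kilobase, for each library (points) with the mean and SD; the vertical axes of both ratio plots do not start at 0, and in each the KO-labelled libraries lie above the WT-labelled ones.

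Of the SERCA pumps, which return Ca2+ to the ER, Atp2a2 did not pass the test and Atp2a3 had too few counts to be tested. Atp2a2, which encodes SERCA2, the housekeeping pump of most cells, had 27522, 27353 and 27750 normalized counts in the KO-labelled libraries and 27467, 28016 and 27805 in the WT-labelled ones. The 2 groups overlapped, and the log2 change was -0.01 (limma, adjusted p = 0.69, standard error 0.02). Its 95% interval of -0.06 to 0.04 corresponds to a ratio between 0.960 and 1.02, the narrowest interval of the 9 tested members. Per kilobase of exon Atp2a2 was the most abundant member by far, at 4529 ± 32.7 in the KO-labelled libraries and 4566 ± 45.5 in the WT-labelled ones (SD, n = 3), and stood at rank 245 of the 18118 genes with a known length. It is located on chromosome 5 at 122453513 to 122502225 (minus strand). Atp2a3, which encodes SERCA3, a pump of blood cells and some epithelia, had 5.10, 5.99 and 4.93 normalized counts in the KO-labelled libraries and 7.09, 9.33 and 5.25 in the WT-labelled ones. These values rest on 4 to 9 reads per library, and the groups overlapped. Without the minimum mean its log2 change was -0.35 (limma, adjusted p = 0.50), so no difference was detectable at this depth. Atp2a3 is located on chromosome 11 at 72961169 to 72993044 (plus strand).

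The values of Atp2a2 and of the IP3 receptors can also be set against each other within each library, which restates the member values above on 1 scale and is no further evidence of a difference. The log2 ratio of Atp2a2 to the summed IP3 receptor genes, each per kilobase of exon, was 3.11, 3.15 and 3.08 in the KO-labelled libraries and 2.89, 2.94 and 2.92 in the WT-labelled ones. The group means differed by 0.20, a direction that the lower Itpr1 and Itpr3 already fix. On a linear scale the mean ratios correspond to 8.67 and 7.55.

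The plasma membrane pumps went in opposite directions. Atp2b1, which encodes PMCA1, the ubiquitous form, had 5055, 5168 and 5223 normalized counts in the KO-labelled libraries and 4668, 4849 and 4655 in the WT-labelled ones. The groups did not overlap, and the log2 change was 0.12 (limma, adjusted p = 0.00041, standard error 0.03). Atp2b4, which encodes PMCA4, had 466, 505 and 479 against 660, 586 and 583 normalized counts, again without overlap, and a log2 change of -0.33 (limma, adjusted p = 4.4e-05, standard error 0.06). Their log2 ratio per kilobase of exon was 3.13, 3.04 and 3.13 in the KO-labelled libraries and 2.51, 2.74 and 2.68 in the WT-labelled ones, a difference of 0.46 between the means, which likewise restates the opposite directions of both genes. The difference in this ratio does not depend on the lengths, which cancel out. Atp2b1 is located on chromosome 10 at 98914406 to 99026143 (plus strand) and Atp2b4 on chromosome 1 at 133699457 to 133801041 (minus strand).

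Slc8a1, the sodium-calcium exchanger best known from heart muscle, had 208, 194 and 215 normalized counts in the KO-labelled libraries and 256, 282 and 330 in the WT-labelled ones. All values of the first group lay below the second, and the log2 change was -0.48 (limma, adjusted p = 6.3e-05, standard error 0.09, 95% interval -0.67 to -0.30). With Itpr1 it was the member that differed most, and it was also among the scarcest, at 10.9 ± 0.58 and 15.4 ± 1.98 per kilobase of exon (SD, n = 3). It is located on chromosome 17 at 81373105 to 81738377 (minus strand).

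Tmco1, the leak channel gene, had 1759, 1821 and 1718 normalized counts in the KO-labelled libraries and 1827, 2012 and 1968 in the WT-labelled ones. The groups were separated only narrowly, and the log2 change was -0.13 (limma, adjusted p = 0.0049, standard error 0.04). It is located on chromosome 1 at 167308378 to 167333978 (plus strand).

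Atp2c1, the Golgi pump gene, had 3045, 2971 and 2881 normalized counts in the KO-labelled libraries and 2731, 2967 and 2708 in the WT-labelled ones. One WT-labelled library lay within the range of the other group. The log2 change was 0.08 (limma, adjusted p = 0.045, standard error 0.03), close to the threshold. The call was lost with DESeq2 (adjusted p = 0.11), without the minimum mean (limma, adjusted p = 0.063, with 42% of all genes called), and, also in limma, without SARAF-KO replicate 1 (0.19) or 2 (0.11) or SARAF-WT replicate 1 (0.11) or 3 (0.21). Atp2c1 is located on chromosome 9 at 105403539 to 105527319 (minus strand), and 1837 bases of its annotated exons are shared with Aste1 on the other strand. The library kit does not mark strand, so reads there cannot be told apart. Aste1 itself had a log2 change of -0.02 (limma, adjusted p = 0.79). No other annotated gene shares more than 296 exon bases with a member.

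**Figure D3:**
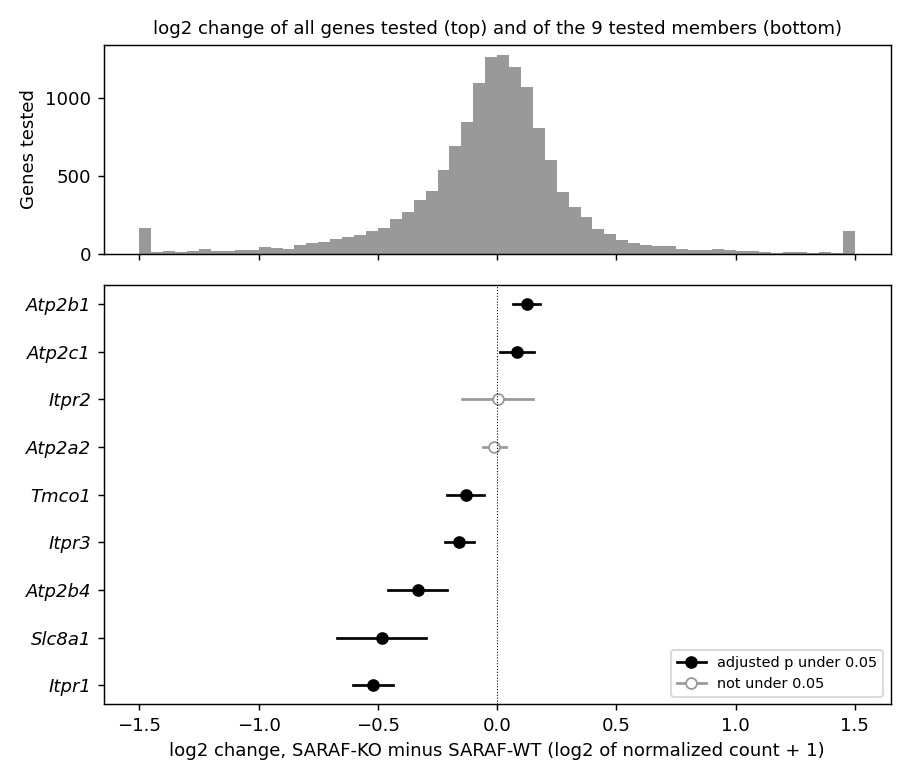
Top, histogram of the log2 change of all 13986 genes tested, with changes below -1.5 or above 1.5 collected in the outermost bars. Bottom, log2 change of the 9 tested members with its 95% interval from limma, filled where the adjusted p was under 0.05; Itpr1 and Slc8a1 lie farthest from 0, at -0.52 and -0.48, and the intervals of Atp2a2 and Itpr2 include 0.

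The order of the members by level was the same in both groups per kilobase of exon. Itpr3 followed Atp2a2, at 418 ± 13.5 in the KO-labelled libraries and 467 ± 10.2 in the WT-labelled ones (SD, n = 3), and was followed by Tmco1, Atp2b1, Atp2c1, Itpr1, Atp2b4, Itpr2, Slc8a1 and Atp2a3. In the WT-labelled libraries, Atp2b1 and Atp2c1 overlapped (310 ± 7.14 and 289 ± 14.8, SD, n = 3), while all other neighbours in the order were separated in both groups. With the longest transcript of each gene as its length, Atp2b1 and Atp2c1 took the places after Atp2a2 and Itpr3 the fifth. Tmco1 and Itpr3 then overlapped in both groups, and Atp2c1 and Tmco1 in the WT-labelled libraries. The first place of Atp2a2 and the last 5 places were the same with either length.

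The libraries also differed in markers of other cells and along chromosomes. Beside every count of calls here stand the shares over all genes tested, 28.2% called higher and 28% lower. Of the 8 smooth muscle and myofibroblast markers, 7 were called lower, and their summed normalized count ran from 6759 to 7524 in the KO-labelled libraries and from 16192 to 20209 in the WT-labelled ones. In the KO-labelled libraries Itpr1, Slc8a1, Atp2b4, Itpr3 and Tmco1 were called lower, Atp2b1 and Atp2c1 higher, and Atp2a2 and Itpr2 were not called. Acta2, smooth muscle actin, had 3077 ± 181 and 8174 ± 1274 normalized counts (SD, n = 3). The part of smooth muscle cells in the members' differences was not tested. Of 8 epithelial and mesothelial markers 4 were tested, 3 called higher and 1 lower, with sums from 4896 to 5333 against 1745 to 1802, mostly from Msln, mesothelin. Of 7 endothelial markers 3 were tested, 2 called lower and 1 higher, with sums from 1532 to 1622 against 2420 to 2462, while Pecam1, a defining marker, was below the minimum, as were Ptprc of blood cells and Epcam of epithelia. No marker with a row in the table was at 0 in all 6 libraries, and some listed markers of blood, skeletal muscle and Schwann cells had no row. In bulk RNA, fewer cells of a type and less RNA per cell cannot be told apart. Of 5 tested neuron markers 3 were called higher and 1 lower beside the lower Itpr1, with sums from 1622 to 1686 against 1344 to 1504. Of 4 tested Schwann and neural crest markers 2 were called higher and none lower, with sums from 526 to 572 against 272 to 292. Of 4 tested blood and immune markers 2 were called higher and 1 lower, with sums from 634 to 661 against 667 to 705. The 1 tested skeletal muscle marker was not called, and that list summed to 44.5 to 51.3 against 53.9 to 57.8. The heart muscle markers, of which 1 of 3 tested was called lower, summed to 71.9 to 94.6 against 112 to 133 beside the lower Slc8a1, with Tnnt2, Myh6, Myh7 and Myl7 below the minimum. On chromosome 10, which carries Atp2b1, 291 of 653 genes tested were called higher and 111 lower, with a median log2 change of 0.09. On chromosome 1, which carries Atp2b4 and Tmco1, the median was -0.05, on chromosome 9, which carries Atp2c1, it was 0.03, and on chromosomes 6 and 17, which carry the IP3 receptor genes and Slc8a1, it was 0.00 on each. The part of these chromosome-wide differences in the members' values was not tested.

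Promoter sequence of RefSeq (GRCm38.p6) was matched by symbol for 8 of the 10 members, all but Atp2a2 and Itpr1. The 250 bases before the start site are shown for 4 members with a window that no annotated exon of GENCODE M21 enters, chosen because they differ in direction: Itpr3 and Slc8a1 were lower, Atp2b1 higher and Itpr2 not called. They lie at chr17:27057054-27057303 (plus strand) for Itpr3, chr17:81738388-81738637 (minus strand) for Slc8a1, chr10:98914902-98915151 (plus strand, the second of 2 listed start sites) for Atp2b1 and chr6:146502224-146502473 (minus strand) for Itpr2. Capitals mark the GC box (GGGCGG), the CCAAT box (CCAAT) and the core letters that NFAT factors bind (GGAAA), each searched on both strands. None of the motifs searched contains another.
Itpr3: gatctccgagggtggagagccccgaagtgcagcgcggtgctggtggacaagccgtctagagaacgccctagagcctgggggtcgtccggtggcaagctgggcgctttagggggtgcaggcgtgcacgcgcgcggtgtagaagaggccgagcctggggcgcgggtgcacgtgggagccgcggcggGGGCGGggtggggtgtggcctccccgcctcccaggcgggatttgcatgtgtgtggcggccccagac
Slc8a1: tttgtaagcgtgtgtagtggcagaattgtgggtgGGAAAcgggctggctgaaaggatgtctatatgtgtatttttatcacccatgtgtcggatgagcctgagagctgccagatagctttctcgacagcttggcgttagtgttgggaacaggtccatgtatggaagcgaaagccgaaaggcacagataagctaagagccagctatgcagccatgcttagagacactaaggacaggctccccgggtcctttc
Atp2b1: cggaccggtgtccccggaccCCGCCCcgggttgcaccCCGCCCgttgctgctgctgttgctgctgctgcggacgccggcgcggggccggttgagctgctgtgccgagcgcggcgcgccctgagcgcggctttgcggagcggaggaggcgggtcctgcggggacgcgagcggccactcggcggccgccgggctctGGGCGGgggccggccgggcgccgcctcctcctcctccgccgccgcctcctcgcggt
Itpr2: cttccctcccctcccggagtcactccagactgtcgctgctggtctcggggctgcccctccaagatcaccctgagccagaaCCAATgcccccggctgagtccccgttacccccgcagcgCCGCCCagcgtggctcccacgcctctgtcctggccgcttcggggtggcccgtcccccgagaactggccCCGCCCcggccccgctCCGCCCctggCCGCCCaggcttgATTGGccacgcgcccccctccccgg
The window of Slc8a1 had 50.4% G and C and no GC box, whereas those of Itpr3, Itpr2 and Atp2b1 had 72.0%, 74.4% and 80.8% and held 1, 4 and 3 GC boxes. A GC box was found in 32.7% of all 32851 promoters of the same length. The NFAT core was found once in the window of Slc8a1 and not in the other windows shown, and it was present in 55.6% of all promoters. It was also found in the window of the other Atp2b1 start site, which exons enter and which held 4 GC boxes, and in those of Tmco1 and of 1 of the 2 Atp2c1 start sites, so it was not particular to Slc8a1. The CCAAT box was found 2 times in the window of Itpr2 (33.8% of all promoters). The cyclic AMP response element (TGACGTCA, 1.55% of all promoters) and the TATA box (TATAAA, 12.4%) were in none of the 4 windows. These matches describe letters only, and no binding was measured.

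Around the members, genes put by symbol in 6 lists around the same cycle were read from the same fit. At the minimum mean of 10, the other pumps and exchangers had the lowest share of calls. There 3 of 9 tested genes were called (33.3%, against 56.2% over all genes), 1 higher and 2 lower (median log2 change -0.10). Atp13a1 was called higher (log2 change 0.13) and Atp13a2 lower (-0.10), and whether either moves Ca2+ was not tested. With a minimum mean of 50 the share was no longer the lowest. Then 3 of 6 of these genes were called, 7 of 15 regulators and partners of SERCA and PMCA, and 7384 of 12254 over all genes. The paralogs Atp2b2, Atp2b3 and Atp2c2 were below the minimum mean. Slc24a3, a potassium-dependent sodium-calcium exchanger, was called lower (log2 change -0.13), and Tmem165, a Golgi cation transporter, was not (-0.04). Of 16 tested regulators and partners of SERCA and PMCA, 8 were called, 5 higher and 3 lower, with a median log2 change of 0.01. S100a1, a Ca2+ binding protein known to stimulate SERCA2 in heart, had 466 ± 6.15 normalized counts in the KO-labelled libraries and 923 ± 27.8 in the WT-labelled ones (SD, n = 3), a log2 change of -0.98 (limma, adjusted p = 1.7e-14, standard error 0.05). Bsg, basigin, a subunit of PMCA complexes, was called higher by 0.10. It lies on chromosome 10, where the median log2 change was 0.09, and the part of that shift in its value was not tested. Pln, the SERCA inhibitor phospholamban, was below the minimum.

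Regulators and partners of the IP3 receptors held the highest share of calls among these lists. Of 22 tested, 18 were called (81.8%, against 56.2% over all genes tested), 8 higher and 10 lower, with a median log2 change of -0.09. No list was tested as a set. Nnat, neuronatin, an ER proteolipid, fell from 1338 ± 66.0 in the WT-labelled libraries to 521 ± 35.7 normalized counts in the KO-labelled ones (SD, n = 3), a log2 change of -1.36 (limma, adjusted p = 6.4e-17, standard error 0.05). It was put in this list by symbol, and whether it acts on the IP3 receptors was not tested. Ahcyl1, which encodes IRBIT, a protein that competes with IP3 for the receptor, fell by 0.21 and Itpripl2, a relative of an IP3 receptor interacting protein, by 0.29. Bap1, a deubiquitinase that stabilizes the IP3 receptor encoded by Itpr3, fell by 0.25. It lies on chromosome 14, where the median log2 change was -0.27, and the part of that shift in its value was not tested. Hspa9, which links IP3 receptors to mitochondria, rose by 0.21.

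The list of ryanodine receptors and other intracellular channels, drawn up by symbol, also held partners and other proteins. Of its 29 tested genes, 18 were called, 8 higher and 10 lower (62.1%, against 56.2% over all genes tested, median log2 change -0.01). Pkd2, a Ca2+-permeable channel of the ER and cilia, fell by 0.25 and Psen2, a presenilin, by 0.67. Of the ryanodine receptor partners, Fkbp1a rose by 0.24 and Fkbp1b fell by 1.14. Ryr1 and Ryr2 were not called, and Ryr3 was below the minimum mean. Of 18 tested Ca2+-binding proteins of the ER lumen and secretory pathway, 12 were called, 7 higher and 5 lower (66.7%, median -0.01). The reticulocalbin genes differed among themselves, with Rcn3 and Rcn1 lower by 0.45 and 0.36 (log2 changes of -0.45 and -0.36) and Rcn2 higher by 0.11. Of 29 tested genes of IP3 production and breakdown, 16 were called, 9 higher and 7 lower (55.2%, median -0.03). Isyna1, the enzyme of the first step of inositol synthesis, had 2057 ± 51.0 normalized counts in the KO-labelled libraries and 431 ± 29.9 in the WT-labelled ones (SD, n = 3), a log2 change of 2.25 (limma, adjusted p = 8.2e-22, standard error 0.05). Rgs4 and Rgs2, which curb signals of Gq-coupled receptors, rose by 4.27 and 0.72 on the log2 scale, while Plcg1, a phospholipase C, fell by 0.29. Rgs4 had 330 ± 16.9 normalized counts in the KO-labelled libraries and 16.7 ± 5.32 in the WT-labelled ones (SD, n = 3), the latter near the minimum mean. The changes of Isyna1, Rgs4, Nnat, Fkbp1b, S100a1, Rgs2 and Psen2 were each larger in size than that of any member. Other listed genes also exceeded the members, among them Gna14 (2.35), Faim2 (-2.11) and the IP3 receptor partner Mrvi1 (-1.37), all with few counts.

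**Figure D4:**
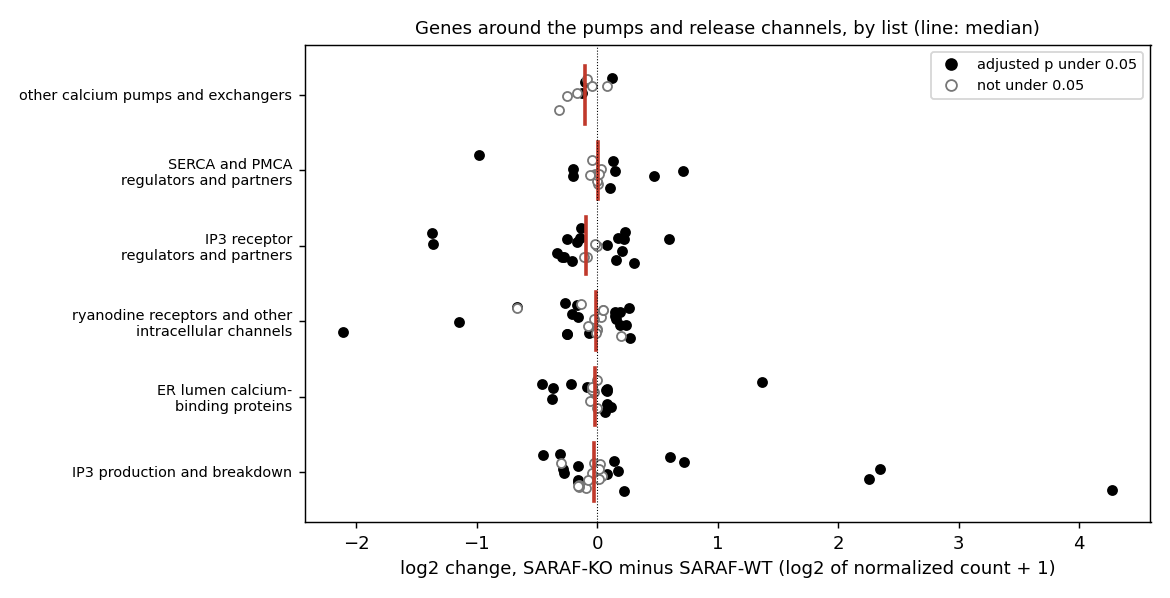
log2 change of each tested gene (points) in the 6 lists of genes around the pumps and release channels, filled where the adjusted p from limma was under 0.05, with the median of each list as a red line. The medians lie between -0.10 and 0.01, and the points farthest from 0 are Rgs4, Gna14 and Isyna1 on the higher side and Faim2 on the lower.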

How the data were processed

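RNA of MEF cultures was sequenced in 6 libraries, 3 per genotype label. The authors mapped single-end reads to GRCm38 with TopHat2 2.0.10, counted them per gene with HTSeq (settings not given in the sources used here) and scaled each library by its DESeq2 size factor. The deposited table holds these normalized counts, a signal value. Its columns of the authors' own comparison (mean, log2 fold change, standard error, statistic and p-values) were not used. Within each library 100% of the deposited values equalled a whole number times the lowest value above 0 (tolerance 1e-06), so reads were recovered. No library was treated as a copy of another (chi-square per degree of freedom 1.53 to 3.99 within groups).

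As the values were normalized, limma 3.58.1 (R 4.3.3, trended variance) was fitted to log2(normalized count + 1) of genes whose mean reached 10, and p-values were adjusted over all of them by the Benjamini-Hochberg method. This scale understates changes of genes with few counts. Alternatives were edgeR 4.0.16 (7926 of 14072 genes called on the recovered reads), DESeq2 1.42.0, limma-voom, TMM and quantile scaling, other filters, pseudocounts and lengths, a replicate block and leaving out each library. Scripts were tested on simulated data. GENCODE M21 gave lengths and positions for 18118 symbols (96%). Members, lists and tests were chosen with earlier results of these data known. Named are all members, Saraf, up to 5 genes with the smallest p in each list and the most abundant gene of a marker list. Aste1, Gna14, Faim2, Mrvi1, Fkbp1b, Ryr1, Ryr2 and the genes given as below the minimum were named after their values were seen.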

Additional observations from a re-analysis of the deposited data

How the results depend on the processing

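Across the 17 alternative settings of the fit over all genes, 6646 to 8000 genes were called, and 6 or 7 members. Itpr1, Itpr3, Slc8a1, Atp2b4, Tmco1 and Atp2b1 kept their direction and their call in each. The call of Atp2c1 was lost with DESeq2, without a filter and without any one of 4 libraries, and its log2 change ran from 0.06 to 0.12 as single libraries were left out. Atp2a2, never called, had a log2 change of 0.022 with quantile normalization. Itpr2, never called, ran from -0.054 to 0.084 as single libraries were left out. DESeq2 called 1 of 12 tested other pumps and exchangers (41.7% of all genes), against 3 of 9 in limma (56.2% of all genes), and the cause was not tested. The share of Itpr1 among the IP3 receptor genes differed by -5.23 percentage points with no division by length and by -5.02 with the longest transcripts, against -3.54. The correlations of deviations over genes were -0.001, 0.002 and -0.001 for same-numbered libraries of the groups. For differently numbered ones they ran from -0.006 to 0.007. The values of same-numbered libraries lay within that range. Whether same-numbered libraries came from paired samples was not tested beyond these correlations. With the replicate number as a block, 7801 genes and 7 members were called, and the within-pair differences of the shares and ratios gave p = 0.25 in an exact sign-flip test, the smallest that 3 pairs allow. Atp2a3, with 4 to 9 reads per library, was too scarce to test, and the standard errors of Slc8a1 (0.09) and Itpr2 (0.07), which also had few counts, were larger than that of Atp2a2 (0.02).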
